A study of Mus musculus with 11 samples.

Results

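A set of 40 genes of the cell cycle was followed in alloreactive T cells, 24 of them acting in mitosis and 16 at the G1 to S transition or in DNA replication. The genes were given by name, and each was represented by the probe set with the highest mean among those whose annotation gives that gene alone. Of the 40 genes, 39 were measured, namely 16 S phase genes and 23 mitosis genes, out of 12393 genes measured on the arrays. A total of 38, that is 15 S phase and 23 mitosis genes, lay in the upper 60% of genes by mean level and were among the 7436 genes tested. Tyms, the thymidylate synthase gene, was measured but too low to be tested, and Ccnb1 is named only.

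The arrays hold RNA of B10.BR T cells that had been stimulated for 4 days by C57BL/6 dendritic cells, so that the responding and stimulating cells differ in strain. The dendritic cells came from Liver (3 arrays), MLN (3), PLN (3) or Spleen (2), and MLN and PLN are kept as the labels abbreviate them. Arrays carry the replicate numbers 2, 3 and 4, and number 2 has no spleen array. All groups share the T cell strain, the dendritic cell strain and the stimulation time. The labels give no T cells without dendritic cells, no subset or purity of either cell type and no age of the mice, and they do not say whether arrays of 1 organ came from separate cultures, so the p-values here speak of array-to-array spread, part of which may be technical. The question was whether the organ that supplied the dendritic cells is reflected in the cell cycle genes of the T cells.

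A naive T cell is quiescent, and engagement of its receptor by an allogeneic dendritic cell leads it through G1 and into repeated rounds of division. At the G1 to S transition, E2F factors and cyclin E with its kinase switch on genes that license replication origins, such as the Mcm helicase, and genes that make deoxynucleotides. Later, in G2 and mitosis, another wave of genes supplies B-type cyclins, the Aurora and Polo kinases, spindle motors, the kinetochore and the anaphase-promoting complex. Most of these transcripts are periodic, so their level in a culture moves with the share of cells in each phase. In bulk RNA, fewer cells in a phase and less RNA per cell cannot be told apart.

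The promoters of these genes carry short elements that are known from cell cycle control, and 6 are shown because their genes recur in the results below. The sequences are the 150 bases before the transcription start from RefSeq, build GRCm38.p6, written in the direction of the gene. Capitals mark matches, on either strand, to CCAAT (the box bound by NF-Y), to the cell cycle homology region CHR, searched as TTTGAA or TTCGAA, and to E2F sites, searched as TTCCCGC or TTCGCGC or TTGCCGC or TTGGCGC. The first 3 belong to mitosis genes and the others to S phase genes.
Cdc20, chr4:118437344-118437493, minus strand: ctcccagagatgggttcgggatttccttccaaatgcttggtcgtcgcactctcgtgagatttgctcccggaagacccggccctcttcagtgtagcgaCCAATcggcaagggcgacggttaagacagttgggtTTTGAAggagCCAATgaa
Ccnb2, chr9:70421555-70421704, minus strand: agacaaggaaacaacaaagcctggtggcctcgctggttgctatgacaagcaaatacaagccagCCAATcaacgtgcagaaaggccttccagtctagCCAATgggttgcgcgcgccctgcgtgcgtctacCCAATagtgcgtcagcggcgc
Cdk1, chr10:69352913-69353062, minus strand: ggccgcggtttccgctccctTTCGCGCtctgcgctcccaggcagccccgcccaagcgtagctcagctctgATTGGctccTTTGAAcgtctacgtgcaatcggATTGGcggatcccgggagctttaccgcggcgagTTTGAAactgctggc
Mcm2, chr6:88898781-88898930, minus strand: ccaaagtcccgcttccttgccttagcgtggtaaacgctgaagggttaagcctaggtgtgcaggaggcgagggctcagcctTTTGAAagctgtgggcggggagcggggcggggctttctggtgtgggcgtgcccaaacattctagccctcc
Cdc6, chr11:98908001-98908150, plus strand: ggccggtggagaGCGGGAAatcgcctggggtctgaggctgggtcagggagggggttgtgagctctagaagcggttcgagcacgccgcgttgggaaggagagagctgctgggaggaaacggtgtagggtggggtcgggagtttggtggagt
Rrm1, chr7:102441545-102441694, plus strand: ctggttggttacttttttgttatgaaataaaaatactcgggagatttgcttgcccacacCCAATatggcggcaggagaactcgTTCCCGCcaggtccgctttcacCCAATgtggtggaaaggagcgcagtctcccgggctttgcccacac

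Over the whole 300-base window of the table, from 250 bases before to 50 after the start, 32 of the 40 genes had an entry. Of the 18 mitosis promoters, 16 (88.9%) held CCAAT and 14 (77.8%) held a CHR match, against 37.9% and 19.4% of all 27025 promoters. E2F letters were in 3 of those 18 (16.7%) and in 9.69% of all promoters. Of the 14 S phase promoters, 8 (57.1%) held an E2F match, 8 (57.1%) CCAAT and 2 (14.3%), those of Mcm2 and Mcm7, a CHR match. These matches are descriptions of letters in a window, not measured binding sites.

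Across arrays, the median intensity ran from 144.3 to 170.4, the actin 3'/5' ratio from 1.08 to 1.15, and pairwise correlations from 0.966 to 0.985. Of 10 T cell markers, 9 were measured and all 9 lay above the filter level, at a summed intensity of 27440 to 36206. Dendritic cell markers were also present: 10 of 11 were measured, 8 of them above the filter level, and their sum was 8447 to 9689 at number 3, 5560 to 6215 at number 2 and 4638 to 6209 at number 4. Much of the higher sum at number 3 was Ccl22, at 2965 to 3697 there and 497 to 1737 at the other numbers. Itgax went the other way, at 101 to 120 at number 3 and 319 to 529 at number 4. Macrophage and monocyte markers, 4 of 8 above the filter level, summed to 895 to 931 with liver cells, 841 to 995 with spleen, 554 to 766 with MLN and 583 to 712 with PLN, and among them C1qa averaged an intensity of 6.5. All 3 measured hepatocyte markers were below the filter level in every group. After the organ means were subtracted, arrays of the same number correlated with one another at 0.412 to 0.731. Arrays that differed in both number and organ correlated at -0.708 to 0.0843, and pairs within an organ were left out. The numbers therefore pair the arrays, and a fit that treats the number as a block is given beside the unblocked one wherever it changes a call.

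Mean levels of the cell cycle genes, on the log2(intensity + 16) scale after quantile normalisation, were highest with liver dendritic cells. The mean over all 39 genes was 10.78, 10.77 and 10.65 on liver arrays 2, 3 and 4. It was 10.56, 10.70 and 10.40 on MLN arrays, 10.48, 10.69 and 10.36 on PLN arrays, and 10.66 and 10.46 on spleen arrays 3 and 4. At each number the liver array was the highest, while the liver array of number 4 lay below the arrays of number 3 from the other organs. The organ means were 10.73 ± 0.07 (SD, n = 3) for liver, 10.55 ± 0.15 (n = 3) for MLN, 10.51 ± 0.17 (n = 3) for PLN and 10.56 ± 0.14 (n = 2) for spleen. By number they were 10.61 ± 0.16 (SD, n = 3) at number 2, 10.70 ± 0.04 (n = 4) at number 3 and 10.47 ± 0.13 (n = 4) at number 4.

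The means were also taken by phase. Mitosis genes averaged 10.76, 10.66 and 10.60 on liver arrays, and no array of another organ reached 10.60, the highest being PLN 3 at 10.57. S phase genes averaged 10.81, 10.92 and 10.71 with liver, which overlapped with 10.72, 10.95 and 10.48 with MLN, 10.64, 10.86 and 10.46 with PLN, and 10.89 and 10.49 with spleen. The 4 arrays of number 3 held the 4 highest S phase means, at 10.86 to 10.95, and those of number 4 ran from 10.46 to 10.71. These means are descriptions of chosen genes and carry no test, and the phases were not tested against each other.

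**Figure D1:**
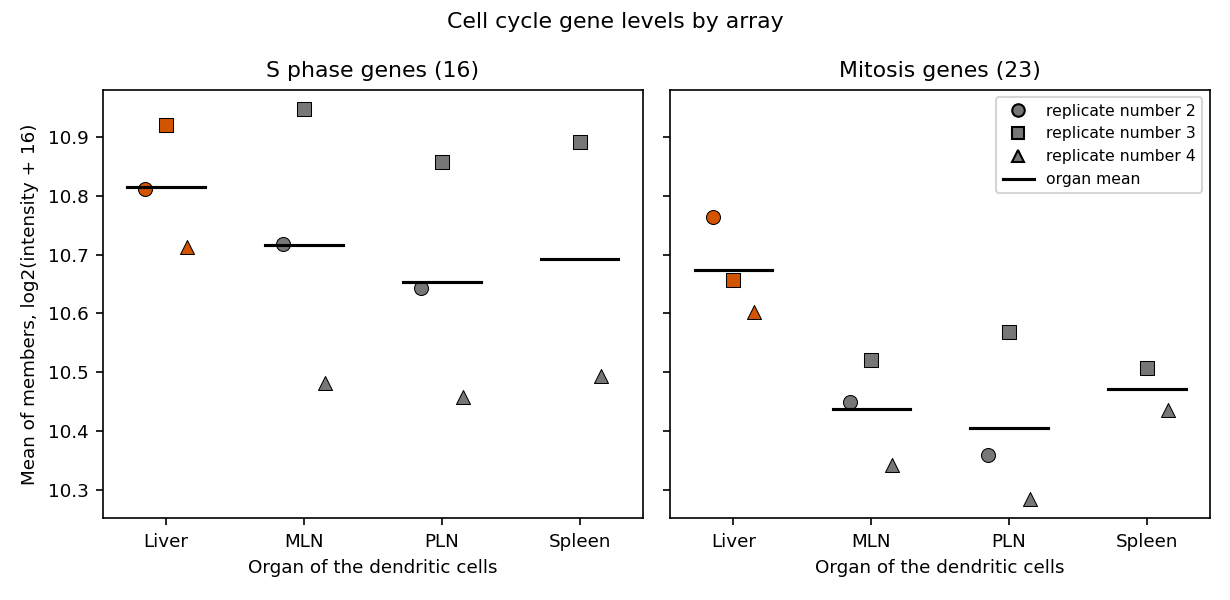
Mean log2(intensity + 16) of the 16 S phase genes (left) and the 23 mitosis genes (right) on each of the 11 arrays, by organ of the dendritic cells; symbols give the replicate number and bars the organ mean. The liver arrays stand highest for mitosis genes (10.60 to 10.76), and the arrays of number 3 stand highest for S phase genes (10.86 to 10.95).

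Every one of the 38 tested genes was higher on average with liver dendritic cells than the mean of the other organs, by a median of 0.20 on the log2 scale, where the median of all tested genes was 0.01. Of all tested genes, 53.2% were higher with liver. The mitosis genes had a median difference of 0.23 and the S phase genes 0.10. Without the block, limma called 0 of 38 genes and 0 of 7436 genes overall (0%) at an adjusted p of 0.05; at an unadjusted p below 0.05 there were 12 of the 38 and 316 genes (4.25%) in all. With the number as a block, 3 of 38 (7.89%) rose, against 0.753% of all tested genes that were called higher and 2.14% called in either direction. The 3 were the mitosis genes Kif20a, Incenp and Cdc20, and no S phase gene was called. With the number as a random block, 0 of 38 were called (0.632% of all genes), and the adjusted p of the same 3 genes was 0.0702, 0.0683 and 0.0861.

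Kif20a encodes a kinesin of the central spindle that acts in cytokinesis. Its level was 9.32, 9.34 and 9.10 on liver arrays 2, 3 and 4, 8.75, 9.04 and 8.70 with MLN, 8.59, 9.17 and 8.69 with PLN, and 9.04 and 8.77 on spleen arrays 3 and 4. The liver array was the highest at every number, and of the other 8 arrays only PLN 3 exceeded Liver 4. In the blocked fit Kif20a was higher with liver by 0.42 (SE 0.09, adjusted p = 0.0391), or 1.34-fold, and by 0.40 (SE 0.14, adjusted p = 0.9998) without the block.

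Incenp encodes the scaffold of the chromosomal passenger complex, which holds Aurora B at centromeres and later at the midzone. Its level was 11.50, 11.44 and 11.34 with liver, 11.41, 11.05 and 11.07 with MLN, 11.09, 11.42 and 10.92 with PLN, and 10.82 and 10.63 with spleen. On this probe set the spleen arrays were below every array of the other organs, and the liver array was again the highest at each number. The liver difference was 0.40 (SE 0.09, adjusted p = 0.0419), or 1.32-fold, in the blocked fit and 0.41 (SE 0.12, adjusted p = 0.9998) without the block. The other Incenp probe sets above the filter level gave 0.12 and 0.36 for the blocked difference, both in the same direction.

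Cdc20 activates the anaphase-promoting complex at the exit from metaphase. It read 11.68, 11.79 and 11.57 with liver, 11.30, 11.59 and 11.40 with MLN, 11.37, 11.62 and 11.30 with PLN, and 11.53 and 11.38 with spleen. Liver 2 and Liver 3 were above all other arrays, and Liver 4 was the highest of its number but below MLN 3 and PLN 3. The difference was 0.25 (SE 0.06, adjusted p = 0.0391) with the block, which is 1.19-fold, and 0.24 (SE 0.10, adjusted p = 0.9998) without it. Its other probe sets gave 0.21 and 0.33 with the block.

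For 3 of 38 genes (7.89%), against 0.646% of all tested genes, all liver arrays were above all other arrays: Ccnb2, Birc5 and Kif23. Ccnb2, a B-type cyclin, was at 11.20, 10.84 and 10.83 with liver and at 10.46 to 10.79 elsewhere. Birc5, the survivin subunit of the passenger complex, was at 11.65, 11.65 and 11.85 with liver and at 11.18 to 11.64 elsewhere, so that the groups nearly met. Kif23, a kinesin of the central spindle, was at 10.09, 9.98 and 10.26 with liver and at 9.50 to 9.94 elsewhere. None of the 3 passed the blocked test: the differences were 0.29 (SE 0.07) for Ccnb2, 0.27 (SE 0.06) for Birc5 and 0.39 (SE 0.09) for Kif23, at adjusted p = 0.0686, 0.0551 and 0.0503. A further Kif23 probe set above the filter level gave 0.63.

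The liver array was the highest of its number at all 3 numbers for 14 of 38 genes (36.8%), against 5.93% of all tested genes. Of these, 10 act in mitosis, namely Ccna2, Ccnb2, Wee1, Aurka, Birc5, Incenp, Cdc20, Kif20a, Kif23 and Mki67, and 4 in S phase, namely Ccne2, Cdc6, Mcm5 and Pcna. Within number 2, the liver array exceeded the mean of MLN and PLN for 35 of 38 genes, by a median of 0.26. Within number 3 it exceeded the mean of the other 3 organs for 29 of 38, by a median of 0.08, and within number 4 for 36 of 38, by 0.24. Of all 7436 tested genes, 3940, 3731 and 3975 were above that mean at numbers 2, 3 and 4, with medians of 0.017, 0.0005 and 0.016. The medians of the mitosis genes were 0.33, 0.12 and 0.26 at numbers 2, 3 and 4 and those of the S phase genes 0.13, 0.03 and 0.19. The difference was thus smallest at number 3 in both phases.

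**Figure D2:**
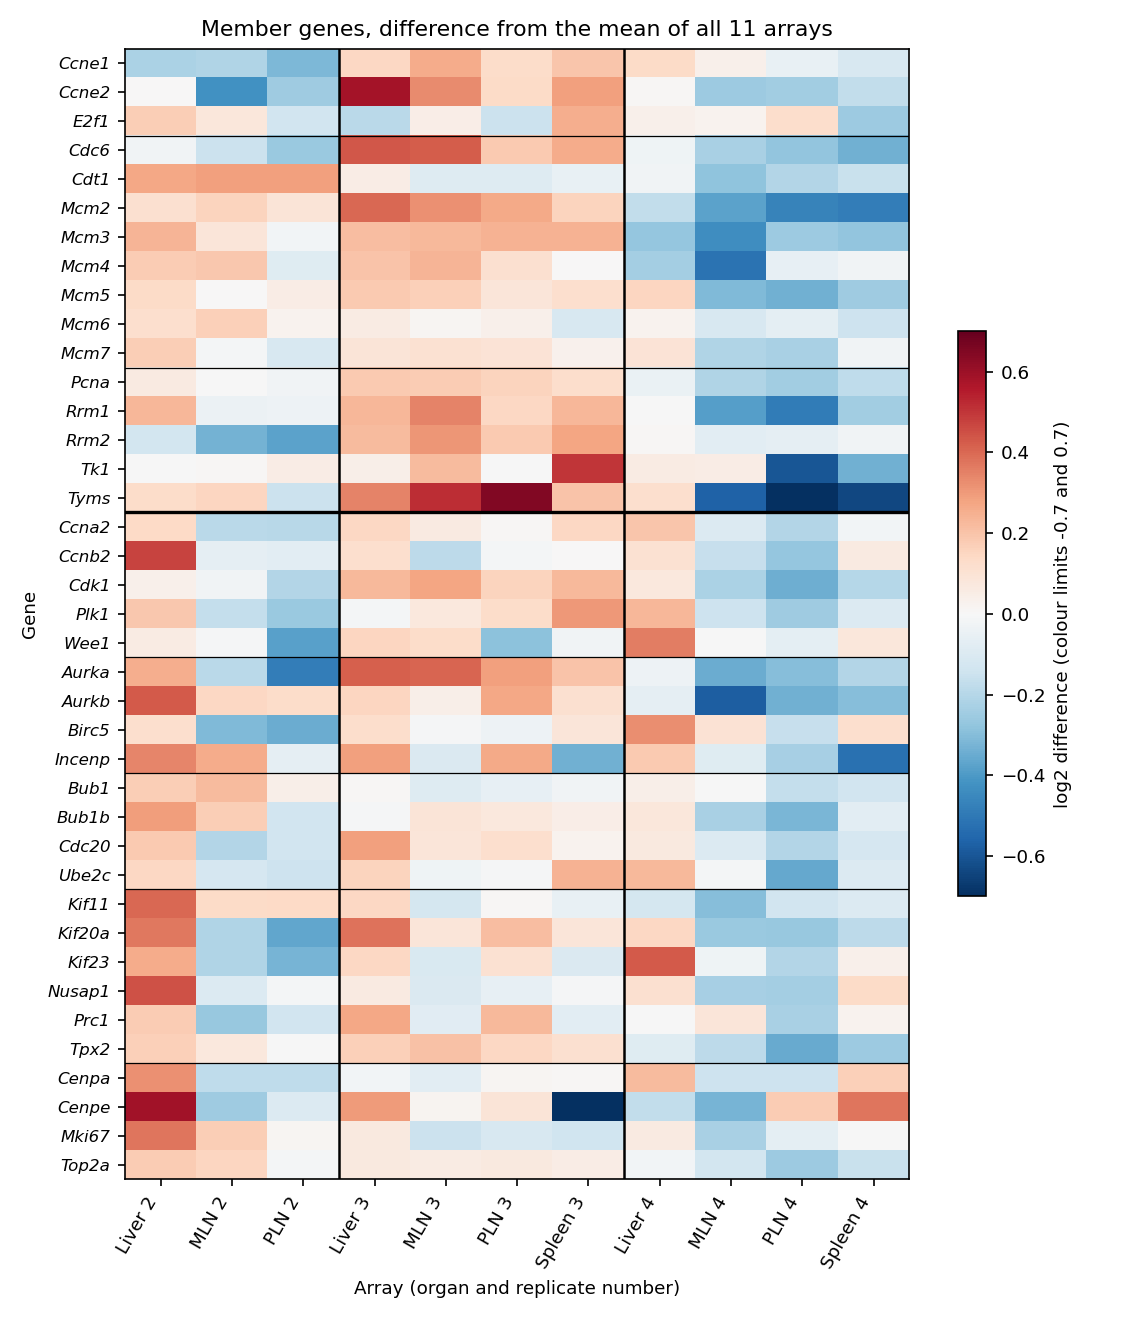
Level of each of the 39 measured genes on each array minus that gene's mean over the 11 arrays (log2), arrays ordered by number and genes by role; the thick line separates S phase genes (above) from mitosis genes (below), and differences beyond 0.7 are drawn at the limit colour. Liver columns are the highest of their number for 14 genes at all 3 numbers, and S phase genes at number 4 are mostly below their mean.

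By role, the blocked liver differences were largest in the group of chromosomal passenger and Aurora A genes, with a median of 0.29 over 4 genes, and in the spindle motors and microtubule proteins, with 0.23 over 6. In the first group Aurka, the centrosomal kinase, differed by 0.31 (SE 0.09) and Aurkb by 0.21 (SE 0.08), beside Incenp and Birc5. In the second, Nusap1 differed by 0.25 (SE 0.07), Prc1, which bundles midzone microtubules, by 0.21 (SE 0.10), the spindle motor Kif11 by 0.16 (SE 0.07) and Tpx2, the activator of Aurora A, by 0.11 (SE 0.07). Among the genes of both groups, only Incenp and Kif20a passed the test, as given above.

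Cyclins, kinases and the entry regulators had a median of 0.22 over 5 genes: Ccna2 differed by 0.22 (SE 0.06), Wee1, the kinase that restrains Cdk1, by 0.27 (SE 0.08), Plk1 by 0.18 (SE 0.10) and Cdk1 by 0.16 (SE 0.06). The centromere and chromosome genes had 0.21 over 4 genes, with Cenpe at 0.33 (SE 0.21), Cenpa at 0.22 (SE 0.08), Mki67, the proliferation marker Ki-67, at 0.21 (SE 0.06) and Top2a at 0.09 (SE 0.05). Cenpe, the kinetochore motor, varied most of the 38, over a range of 1.29 from 8.38 on Spleen 3 to 9.67 on Liver 2. Checkpoint and anaphase genes had a median of 0.19 over 4 genes, with Ube2c at 0.23 (SE 0.07), Bub1b at 0.15 (SE 0.09) and Bub1 at 0.09 (SE 0.07) beside Cdc20.

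The S phase groups lay closer to 0. Origin licensing genes had a median of 0.13 over 8 genes, from 0.05 for Mcm4 to 0.21 (SE 0.07) for Mcm5, with Cdc6, the loader of the Mcm helicase, at 0.20 (SE 0.07) and Mcm2 at 0.16 (SE 0.06). Other probe sets above the filter level gave both higher and lower values. A further Mcm2 probe set had the opposite sign, at -0.18, as had that of Mcm6, at -0.08. That of Mcm4 gave 0.18, and those of Mcm7 gave 0.37, 0.19 and 0.01, where the one used gave 0.16. Those of Mcm3 ran from -0.02 to 0.16, where the one used gave 0.07, and that of Cdt1 gave 0.02, where the one used gave 0.10. DNA synthesis and nucleotide genes had 0.08 over 4 genes, with Rrm1, the large subunit of ribonucleotide reductase, at 0.20 (SE 0.07), Pcna, the sliding clamp, at 0.09 (SE 0.04), Rrm2 at 0.08 (SE 0.05) and Tk1 at 0.03 (SE 0.12). The G1 to S genes had 0.06 over 3 genes, with Ccne2 at 0.29 (SE 0.08), Ccne1 at 0.06 (SE 0.07) and E2f1 at 0.00 (SE 0.12). Ccne1 and E2f1 changed sign when single arrays were left out. Other probe sets gave 0.37 and 0.13 for Rrm2, 0.18 for Rrm1 and -0.15 for E2f1. The liver differences of the S phase genes thus varied with the probe set.

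**Figure D3:**
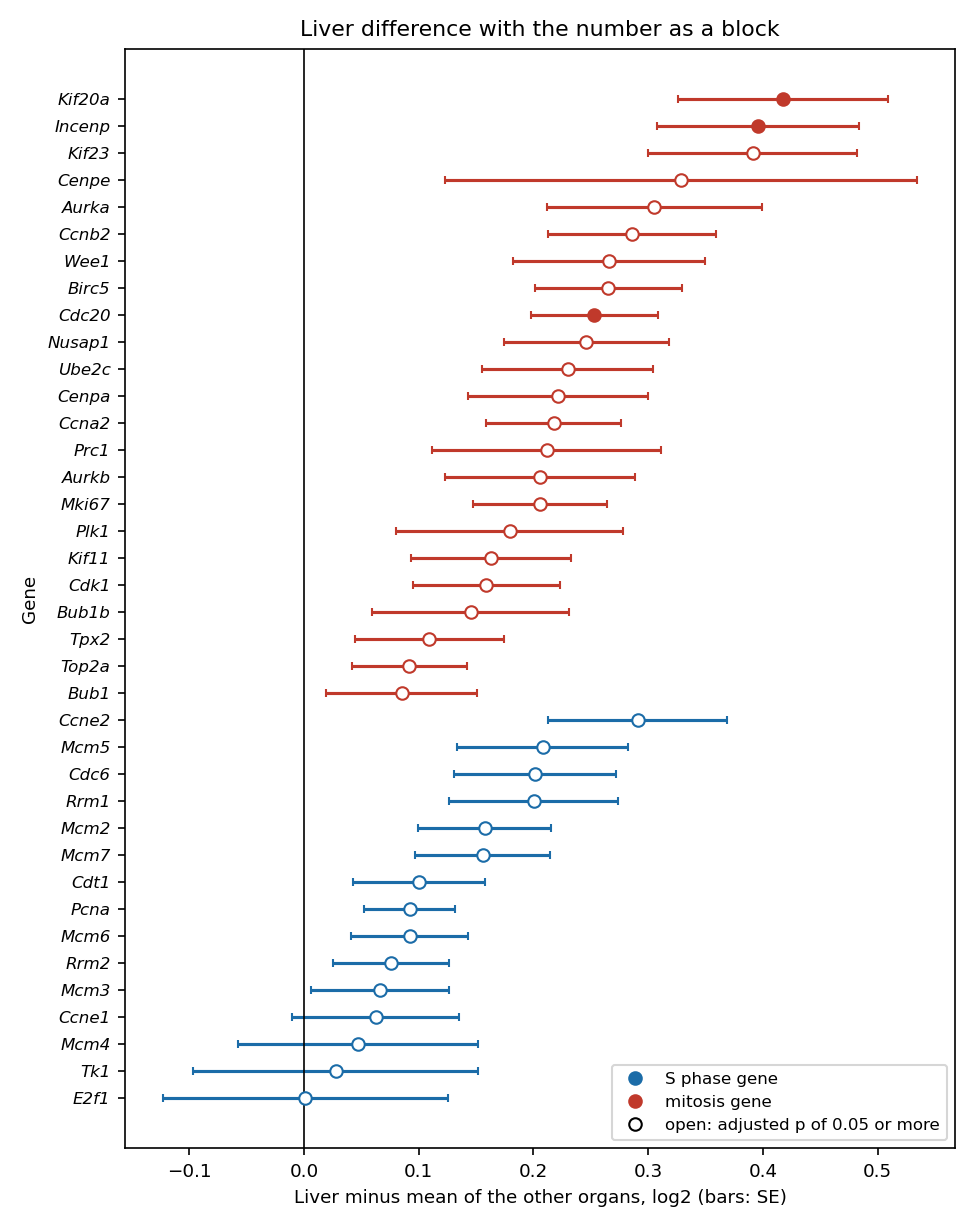
Liver minus the mean of the other organs (log2) for 38 genes in the blocked fit; points are estimates, bars are standard errors and filled points have an adjusted p below 0.05. All 38 estimates are at or above 0, and the filled ones are the mitosis genes Kif20a, Incenp and Cdc20.

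The number of blocked calls depended on single arrays. It was 0 without Liver 2, Liver 4, PLN 2, PLN 4 or Spleen 3, where 0.0941% to 1.29% of all tested genes were called in either direction. It was 1 without MLN 2, MLN 3, MLN 4 or Spleen 4 (0.807% to 2.57% of all genes), 5 without Liver 3 (2.34%) and 6 without PLN 3 (2.78%). With the block and median centring, or the mean of a gene's probe sets, 1 gene was called, Kif20a (1.56% and 1.6% of all genes), and on intensities as deposited 2 were, Kif20a and Kif23 (2.15%). The macrophage and monocyte markers, whose summed level is given above, were in sum higher with liver than with MLN or PLN. Cd14 and Lyz2 were higher on every liver array than on any MLN or PLN array, and the other markers of that list overlapped. Of its 4 tested markers, 1 rose for liver against the other organs in the blocked fit (0.753% of all tested genes). Against MLN 2 rose (1.88%), against PLN 1 (0.417%) and against Spleen 0 (0%). Of the 9 tested T cell markers, 8 were above 0 for liver in the blocked fit (53.1% of all tested genes), with a median of 0.15, and 0 were called. Against MLN, with the block, 2 of the 9 rose (22.2% against 1.88% of all tested genes). The part of these cells in the liver difference was not tested.

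In the pairs of organs, the liver differences were above 0 for 35 of 38 genes against MLN (median 0.19), 38 of 38 against PLN (median 0.23) and 35 of 38 against Spleen (median 0.15). Over all tested genes 53%, 53.5% and 50% were above 0, with medians of 0.01, 0.01 and 0. All 23 mitosis genes were above 0 in each of these pairs, which share the liver arrays. Without the block 0 of 38 genes were called in any of these pairs, and the shares called over all genes were 0.161%, 0% and 0%. At an unadjusted p below 0.05 there were 6, 9 and 1 of the 38, against 4.79%, 3.7% and 1.76% of all tested genes. With the block, 3 of 38 rose against MLN (1.88% of all tested genes were called higher, 4.13% either way): Ccnb2 by 0.37 (SE 0.09, adjusted p = 0.0361), Nusap1 by 0.35 (SE 0.09, adjusted p = 0.0416) and Kif20a by 0.43 (SE 0.11, adjusted p = 0.0497). Against PLN 1 gene rose (0.417% higher, 1.51% either way), Birc5 by 0.37 (SE 0.08, adjusted p = 0.0382). Against Spleen 0 were called (0% of all genes), with 9 genes at an unadjusted p below 0.05, against 8.66% of all tested genes. The largest difference there was that of Incenp, 0.66 (SE 0.12, adjusted p = 0.233), whose probe sets disagree for spleen.

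These pair counts also rested on single arrays. The blocked count against MLN was 0 without Liver 2, Liver 4, MLN 2, MLN 3 or MLN 4 (0.982% to 2.21% of all tested genes in either direction) and 1 without PLN 4 (4.01%). It was 2 without PLN 2, Spleen 3 or Spleen 4 (3.6% to 4.32%), 4 without PLN 3 (3.85%) and 8 without Liver 3 (3.75%). Against PLN it was 0 without Liver 2, Liver 4, any MLN array, PLN 2 or PLN 4 (0.0134% to 1.12%), 1 without Spleen 3 or Spleen 4 (1.84%), 5 without PLN 3 (1.96%) and 8 without Liver 3 (3.2%). Under median centring with the block, 0 genes were called against MLN (3.12% of all genes) or PLN (1.08%); on intensities as deposited, 2 were called against MLN (3.91%) and 0 against PLN (1.06%).

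No cell cycle gene was called between the other organs. With PLN dendritic cells, 6 of 38 genes were above the mean of the other organs, against 48.2% of all tested genes. The median difference was -0.11 (-0.15 for mitosis genes and -0.08 for S phase genes). Those of smallest p were Wee1 at -0.33 (SE 0.11), Birc5 at -0.25 (SE 0.10) and Ube2c, the ubiquitin-conjugating enzyme of the anaphase-promoting complex, at -0.24 (SE 0.10). The S phase gene Tk1 was also low, at -0.25. Wee1 was at 8.50, 8.59 and 8.81 with PLN, 8.93, 9.03 and 9.23 with liver, and no lower than 8.87 with MLN and 8.85 with spleen, so that all 3 PLN arrays were below all the others. limma called 0 of 38 in either fit (0% of all genes without and 0.0134% with the block). At an unadjusted p below 0.05 there were 3 and 8 of the 38, against 1.21% and 8.12% of all tested genes. Among arrays of its number, PLN was the lowest for 28 of 38 genes at number 2, 12 at number 3 and 21 at number 4, against 32.8%, 21.2% and 26.5% of all tested genes.

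With MLN cells, 13 of 38 genes were above the mean of the other organs (48.3% of all tested genes), with a median of -0.05. The genes of smallest p were Cenpa at -0.18 (SE 0.09), Nusap1 at -0.20 (SE 0.10) and Ccnb2 at -0.18 (SE 0.10). limma called 0 in either fit (0.0941% and 1.33% of all genes). At an unadjusted p below 0.05 there were 0 and 5 of the 38, against 3.7% and 13.5% of all tested genes. With spleen cells 14 of 38 were above (53.5% of all tested genes), with a median of -0.02, and 0 were called in either fit (0% of all genes in both). At an unadjusted p below 0.05 there were 1 and 2 of the 38, against 1.92% and 8.7% of all tested genes. Incenp, whose values are given above, was lower with spleen by -0.52 (SE 0.14, adjusted p = 0.9994), and by -0.48 (SE 0.10, adjusted p = 0.364) with the block, on the probe set used. The other Incenp probe sets above the filter level had the opposite sign for spleen, at 0.36 and 0.15 with the block, and the mean of the probe sets gave 0.0096. In the 3 pairs among MLN, PLN and Spleen, 0 of 38 were called in either fit (0.0134%, 0% and 0% of all genes without the block, 0.148%, 0.215% and 0% with it). At an unadjusted p below 0.05 there were 0, 1 and 1 of the 38 without the block, against 1.29%, 3.51% and 1.56% of all tested genes. With the block there were 1, 3 and 4, against 5.93%, 13.9% and 8.14%. The F-test over the 4 organs called 0 of 38 in both fits (0.0403% and 1.99% of all genes). Without the block, 4 of the 38 had an unadjusted p below 0.05, against 2.56% of all tested genes.

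The arrays were then compared between replicate numbers. The labels do not say what a number stands for. In a fit with organ and number as terms, 18 of 38 genes (47.4%) fell from number 3 to number 4 and 0 rose, against 21% of all tested genes that fell and 22.3% that rose, 43.3% in all. They comprised 11 of 15 S phase genes (73.3%) and 7 of 23 mitosis genes (30.4%). Under median centring 7 S phase and 5 mitosis genes fell, against 17.5% of all tested genes. The median difference was -0.33 for S phase genes, -0.15 for mitosis genes and 0.01 for all tested genes.

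Mcm2, a subunit of the replicative helicase, was at 11.56, 11.48, 11.43 and 11.32 at number 3 in liver, MLN, PLN and spleen, at 10.99, 10.79, 10.69 and 10.67 at number 4, and at 11.27, 11.31 and 11.25 at number 2 in liver, MLN and PLN. The 3 numbers did not overlap, with number 3 the highest and number 4 the lowest. Numbers 2 and 3 nearly met, at 11.31 on MLN 2 and 11.32 on Spleen 3. From number 3 to number 4 it fell by 0.66 (SE 0.06, adjusted p = 7.917e-06), so that number 3 was 1.58-fold higher. Its other probe set gave -0.40.

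Mcm3, of the same helicase, was at 11.78, 11.80, 11.81 and 11.81 at number 3, at 11.30, 11.14, 11.31 and 11.29 at number 4, and at 11.81, 11.66 and 11.55 at number 2. Number 4 was below all other arrays, and numbers 2 and 3 overlapped. It fell by 0.54 (SE 0.06, adjusted p = 3.722e-05).

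Cdc6 was at 9.72, 9.71, 9.47 and 9.55 at number 3, at 9.26, 9.06, 9.01 and 8.95 at number 4, and at 9.26, 9.13 and 9.02 at number 2. Number 3 stood apart from the other numbers, which overlapped. It fell by 0.54 (SE 0.07, adjusted p = 0.000118) to number 4 and rose by 0.50 (SE 0.08, adjusted p = 0.002) from number 2 to number 3.

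Rrm1 was at 11.62, 11.73, 11.52 and 11.61 at number 3, at 11.38, 10.99, 10.89 and 11.14 at number 4, and at 11.61, 11.34 and 11.34 at number 2. The liver array was the highest at numbers 2 and 4, and MLN was at number 3. It fell by 0.52 (SE 0.08, adjusted p = 0.000207) from number 3 to number 4, and a further probe set gave -0.52. Pcna, at 13.33 to 13.39 at number 3 and 12.96 to 13.16 at number 4, fell by 0.33 (SE 0.04, adjusted p = 6.634e-05), but did not pass under median centring, at -0.27 (adjusted p = 0.0873). Ccne2, cyclin E2, fell by 0.50 (SE 0.08, adjusted p = 0.000411).

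The other S phase genes that fell from number 3 to number 4 were Rrm2, Mcm4, Mcm5, Mcm7 and Tk1, by 0.17 to 0.40, and of these Rrm2, Mcm7 and Tk1 did not pass under median centring. Mcm6, Cdt1, Ccne1 and E2f1 did not pass, at -0.07, -0.12, -0.18 and -0.01. The 7 mitosis genes that fell were Aurka by 0.55 (SE 0.10), Aurkb by 0.46 (SE 0.09), Cdk1 by 0.39 (SE 0.07), Tpx2 by 0.38 (SE 0.07), Kif20a by 0.33 (SE 0.09), Cdc20 by 0.22 (SE 0.06) and Top2a by 0.20 (SE 0.05), at adjusted p values from 0.000545 to 0.0133. Cdc20 and Top2a (-0.19) did not pass under median centring, nor Top2a (-0.09) and Tpx2 with the mean of a gene's probe sets. The other Tpx2 probe set above the filter level had the opposite sign, at 0.16. Mki67 differed by 0.02 (SE 0.06) and did not pass, and neither did Ccnb2 at -0.05 (SE 0.08), Birc5 at 0.05 (SE 0.07) and Kif23 at 0.05 (SE 0.09). The further Kif23 probe set above the filter level gave -0.39.

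In single organs, 20 of 38 genes (52.6%) were lower at number 4 than at number 3 in all 4 organs and 0 were higher in all 4, against 26.7% and 28% of all tested genes. The 20 comprised 12 of 15 S phase genes (80%) and 8 of 23 mitosis genes (34.8%). The S phase median was -0.21 in liver, -0.39 in MLN, -0.38 in PLN and -0.37 in spleen, and the mitosis median was -0.01 in liver, -0.16 in MLN, -0.32 in PLN and -0.12 in spleen. Differences between organs in this respect were not tested.

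**Figure D4:**
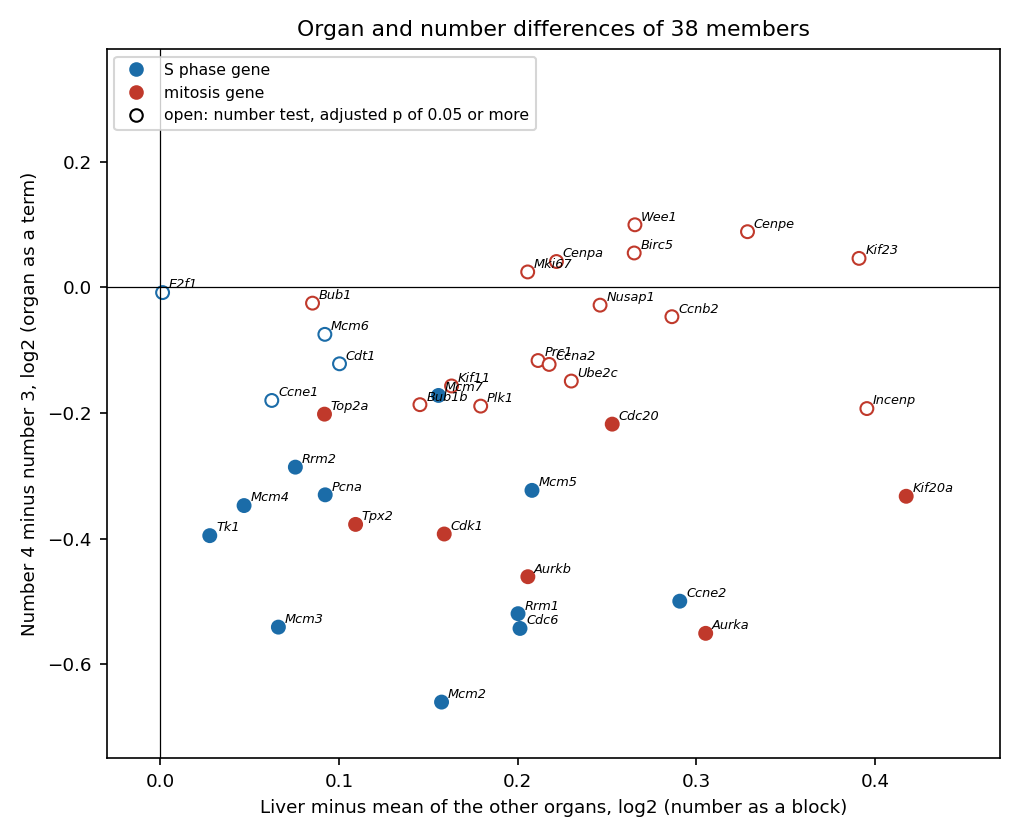
Liver minus the mean of the other organs (x axis, log2, number as a block) against number 4 minus number 3 (y axis, log2, organ as a term) for 38 genes; each point is a gene, and filled points have an adjusted p below 0.05 in the number comparison. S phase genes reach the lowest values on the y axis (Mcm2 at -0.66), and the mitosis genes Ccnb2, Birc5 and Kif23 lie near 0 on it, on the probe set used for each gene.

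From number 2 to number 3, 11 of 38 genes (28.9%) changed, against 18.9% of all tested genes. There 9 rose (23.7% against 9.29%), namely Ccne2 by 0.57 (SE 0.09), Rrm2 by 0.52 (SE 0.06), Cdc6, Aurka by 0.49 (SE 0.11), Ccne1 by 0.45 (SE 0.08), Cdk1 by 0.29 (SE 0.07), Mcm2 by 0.21 (SE 0.07), Cdc20 by 0.20 (SE 0.06) and Pcna by 0.16 (SE 0.05). Cdt1, a licensing factor that is degraded in S phase, fell by 0.33 (SE 0.07) and Mki67 by 0.27 (SE 0.07), which makes 2 that fell (5.26% against 9.59%). Rrm2, the small subunit of ribonucleotide reductase, was at 12.35, 12.14 and 12.10 at number 2 and at 12.70, 12.79, 12.66 and 12.75 at number 3, without overlap. Cdt1 was at 11.48, 11.50 and 11.50 at number 2 and at 11.26, 11.12, 11.12 and 11.16 at number 3, also without overlap.

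The count of 11 was 6 without MLN 2 or PLN 2 (10.2% and 8.92% of all tested genes) and 7 without MLN 3 or PLN 3 (12.4% and 12.5%). Under median centring in place of quantile normalisation 5 genes rose, namely Aurka, Ccne1, Ccne2, Cdc6 and Rrm2, and 0 fell, against 6.82% and 5.74% of all genes.

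From number 2 to number 4, 13 of 38 genes (34.2%) changed, against 27.2% of all tested genes. There 10 fell (26.3% against 12.4%): Aurkb by 0.55 (SE 0.10), Cdt1 by 0.45 (SE 0.07), Mcm2 by 0.45 (SE 0.07), Mcm3 by 0.42 (SE 0.07), Kif11 by 0.39 (SE 0.08), Rrm1 by 0.34 (SE 0.08), Tpx2 by 0.29 (SE 0.08), Mki67 by 0.25 (SE 0.07), Top2a by 0.24 (SE 0.06) and Pcna by 0.17 (SE 0.05). Ccne1 by 0.27 (SE 0.08), Birc5 by 0.26 (SE 0.07) and Rrm2 by 0.23 (SE 0.06) rose, which is 7.89% against 14.8%. The count was 6 without MLN 2 (14.3% of all genes) and 8 without MLN 4 or PLN 2 (18% and 16.9%). Under median centring 5 fell, namely Aurkb, Kif11, Cdt1, Mcm2 and Mcm3, and 0 rose, against 7.69% and 12% of all genes. The number comparisons share arrays and are given side by side.

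The dendritic cell markers moved with the number: of the 8 tested, 6 fell and 1 rose from number 3 to number 4, with a median of -0.54, where 21% of all tested genes fell and 22.3% rose. The 1 that rose was Itgax, by 1.85. Of the 9 tested T cell markers 3 rose (33.3%) and 2 fell (22.2%), with a median of 0.15. Of the 4 tested B cell and plasma cell markers, 2 rose and 0 fell from number 3 to number 4, with a median of 0.45. From number 2 to number 3, 0 of these 4 rose and 1 fell (median -0.34), where 9.29% of all tested genes rose and 9.59% fell. In that step 2 of the 8 dendritic cell markers rose and 0 fell (median 0.39). Of the 9 T cell markers, 2 rose and 0 fell (median 0.01). The part of these cells in the number differences was not tested.

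Other genes of the cell cycle, from lists of G1 regulators, replication genes and mitosis genes that were set beside the 40, gave the following counts. Of 38 other mitosis genes, 36 were above 0 for liver in the blocked fit and 2 rose (5.26% against 0.753% of all tested genes), the condensin gene Ncapd2 by 0.40 (SE 0.08, adjusted p = 0.0276) and the checkpoint gene Mad2l1 by 0.32 (SE 0.07, adjusted p = 0.0404), with a list median of 0.21. Of 32 other replication genes, 28 were above 0 and 0 were called, with a median of 0.13. Over all tested genes 53.1% were above 0 in this fit. Of 26 G1 regulators, 16 were above 0, 0 rose and 2 fell (7.69% against 1.39% of all tested genes): Ccnd3, cyclin D3, by 0.35 (SE 0.06, adjusted p = 0.0129) and Cdkn1a, the kinase inhibitor p21, by 0.38 (SE 0.07, adjusted p = 0.0239). Without the block none of these 4 passed, at adjusted p = 0.9998 for Ncapd2, Ccnd3 and Cdkn1a.

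From number 3 to number 4, 16 of the 32 replication genes (50%) fell and 0 rose, against 21% and 22.3% of all tested genes, with a median of -0.22, led by the origin recognition genes Orc1 at -0.92 (SE 0.09) and Orc2 at -0.71 (SE 0.08). Of the 38 other mitosis genes 7 fell (18.4%) and 6 rose (15.8%), both below the shares of all tested genes, with a median of -0.07, and Cdc25b, a phosphatase that activates Cdk1, rose by 1.04 (SE 0.08). Of the 26 G1 regulators 9 fell (34.6%) and 6 rose (23.1%). Among them Cdc25a fell by 1.10 (SE 0.07, adjusted p = 7.01e-07), and Cdkn1b, the kinase inhibitor p27 of quiescent cells, rose by 1.11 (SE 0.14, adjusted p = 5.92e-05).

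Several genes had more than 1 probe set: 22 of the genes had 34 further probe sets, of which 27 lay above the filter level. Of these 27, 23 had the same sign as the one used for liver with the block, 21 for number 4 minus number 3, and 23 for number 3 minus number 2. Rrm2 gave -0.86 and -0.53 on its other probe sets for number 4 minus number 3, larger than the -0.29 of the one used.

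Tyms, which was not tested, was at 6.96, 7.17 and 6.95 with liver, 6.98, 7.35 and 6.26 with MLN, 6.68, 7.48 and 6.07 with PLN, and 7.03 and 6.19 with spleen. In every organ its lowest array was that of number 4, though in liver number 2 was nearly as low.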

How the data were processed

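Per the labels, total RNA of T cells was hybridised to single-colour arrays. The authors deposited linear intensities, 1 for each probe set on each array, without log transformation; from the values, the mean after trimming 2% at each end was 500.2 on every array. For the software and probe summary behind them, the sources used here give nothing. Of 22690 probe sets, 64 controls were left out, and those with 1 gene symbol in the platform annotation (20393) were used, the highest by mean for each gene. Values were taken as log2(intensity + 16), quantile normalised, and filtered to the upper 60% of genes (intensity above 104.7). This scale understates changes of low genes.

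limma 3.58.1 (R 4.3.3, lmFit, eBayes with trend) was fitted to all 7436 genes and 11 arrays, with Benjamini-Hochberg adjustment at 0.05: 4 organ means without a block (7 residual degrees of freedom, the reference for organs), with the number as a fixed block (5) or random block (correlation 0.555), and organ plus number for the number comparisons (5). "Rose" and "fell" refer to genes past that threshold. The pairing rests on residual correlations between arrays of the same number, as the labels do not explain the numbers. The fits were tested on simulated data. Full statistics were planned for the members of smallest p in each comparison and for Mki67, Ccnb1, Cdk1, Top2a, Pcna, Mcm2, Ccne1 and E2f1. The members, roles, lists and motifs were chosen with earlier results of these data known. Promoters were taken from the first start listed for each gene. Alternatives were scaling, pseudocount, filter, trend, probe set rule and leaving out each array; 3 that combine the block with another choice were added after the data were seen. The number of arrays limits the precision.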

Additional observations from a re-analysis of the deposited data

Results flagged for a closer look

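The levels of the genes and their means were checked for single arrays far from the other arrays of the same number, at numbers 3 and 4 with 4 arrays each, by comparing the gap to the nearest array with the whole range. Of 84 such groups, 3 stood out, where chance flags about 1 in 20. Mki67 at number 3 was at 11.79 on the liver array, and the nearest of the others was at 11.60. Mcm3 at number 4 was at 11.14 on the MLN array, and the nearest was at 11.29. The mean of the S phase genes at number 4 was 10.71 on the liver array, and the nearest was at 10.49.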

How the results depend on the processing

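The blocked fit called 3 genes for liver against the other organs, 3 against MLN and 1 against PLN, where the unblocked fit called 0, and it changed no other count of calls by organ. In the added settings with the block, the liver count was 2 on intensities as deposited and 1 with median centring or the mean of a gene's probe sets; the count against MLN was 2 as deposited and 2 with the mean of probe sets, and that against PLN was 1 with the mean of probe sets. Leaving out each array in turn with the block gave 0 to 6 genes for liver, 0 to 8 against MLN, 0 to 8 against PLN and 0 to 2 in the F-test. Median centring gave an MLN minus Spleen median of 0.12 in place of -0.02 (0.12 with the block too). The median of all tested genes for this pair moved as well, from -0.01 to 0.08 without the block. The same centring gave 7 S phase genes that fell from number 3 to 4, 5 calls from number 2 to 3 (5 rose, 0 fell) and 5 from number 2 to 4 (0 rose, 5 fell). Without the variance trend, 6 genes changed from number 2 to 3 (5 rose, 1 fell) and 1 rose from number 2 to 4, and the mean of probe sets left 1 that fell from number 2 to 3. Leaving out each array gave 6 to 12 calls from number 2 to 3 (4 to 10 rose, 1 to 2 fell) and 6 to 14 from number 2 to 4 (0 to 3 rose, 6 to 12 fell). With the mean of probe sets, signs turned for liver at Mcm2 (-0.0047, with the block -0.011) and E2f1 (-0.0595, with the block -0.073), for number 4 minus 3 at E2f1 (0.056), and, with the block, for spleen at Incenp (0.0096). Without single arrays, the liver difference ranged from -0.077 to 0.11 for E2f1 (with the block -0.11 to 0.13, and below 0 at -0.083 without Liver 2, -0.038 without Liver 4 or PLN 2, -0.0019 without MLN 2, -0.014 without PLN 3 and -0.11 without Spleen 4) and from -0.04 to 0.14 for Ccne1 (with the block -0.0003 to 0.12), and number 4 minus 3 from -0.11 to 0.16 for E2f1 and from -0.013 to 0.068 for Mki67. The causes were not tested. Median centring also ended the calls of Pcna (-0.27) and Top2a (-0.19) from number 3 to 4. The pseudocounts and the filters on low genes moved none of these counts or medians beyond the limits set for them. Levels near the filter are the least certain, and Tyms was below it.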
